A study of Mus musculus with 10 samples.

Results

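Gene expression in inguinal subcutaneous white fat was compared between mice whose left hindlimb had received 33.3 Gy of electrons at ultra-high dose rate (FLASH, 4 libraries) and mice that had not been irradiated (sham, 3 libraries). The members were chosen by their titles, and they are 7 of the 10 libraries of the series. The other 3 libraries came from mice given the same dose at conventional dose rate (CONV) and enter here only through the shared estimate of the spread and 1 set of values named below. All mice were wild-type C57BL/6J, the fat was taken from the left hindlimb at day 70, and all libraries carry the same batch number. Whether the libraries came from separate animals is not stated in the labels, and the errors and tests below therefore measure the spread between libraries. Sex and age are not stated in the labels.

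White fat stores triglyceride in adipocytes, which sit among progenitors, macrophages, vessels and nerve fibres. The inguinal pad can also form beige adipocytes, which burn fat and express a thermogenic programme. A lymph node lies within the pad, and skin and leg muscle border it, so a dissected piece can carry RNA of those tissues. Ionizing radiation breaks DNA and activates the transcription factor p53, and at late times it is known for fibrosis and fat loss in soft tissue. FLASH delivers the dose in a fraction of a second and is studied for its sparing of normal tissue.

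Gene counts were 22.4 M to 36.0 M (M, 1e6) per library, median 31.3 M, and 52.0% to 69.6% of all reads were given to no gene. Values per gene are counts per 1e6 gene counts scaled by TMM (CPM), and a count of 3 in a library equalled 0.0833 to 0.134 CPM, a floor that covers counting error only. The adipocyte hormone gene Adipoq was measured at 2102, 1718 and 1562 CPM in sham replicates 1 to 3 and at 2084, 1697, 377 and 1348 CPM in FLASH replicates 1 to 4. FLASH replicate 3 stood apart from the other 6 libraries. Its Cr2, a complement receptor of B cells and follicular dendritic cells, reached 416 CPM against 0.0976 to 0.437 CPM in the others, and Glycam1, a product of lymph node vessels, was at 36.8 CPM there and at 0 in the other 6. The first principal component (69.8% of the variance) placed FLASH replicate 3 at 166 and the others between -34.0 and -17.4. Fold changes and list medians are therefore given with all libraries and without those in which Cr2 exceeded 100 CPM of gene counts, which are FLASH replicate 3 and, in the fit, CONV replicate 2.

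**Figure D1:**
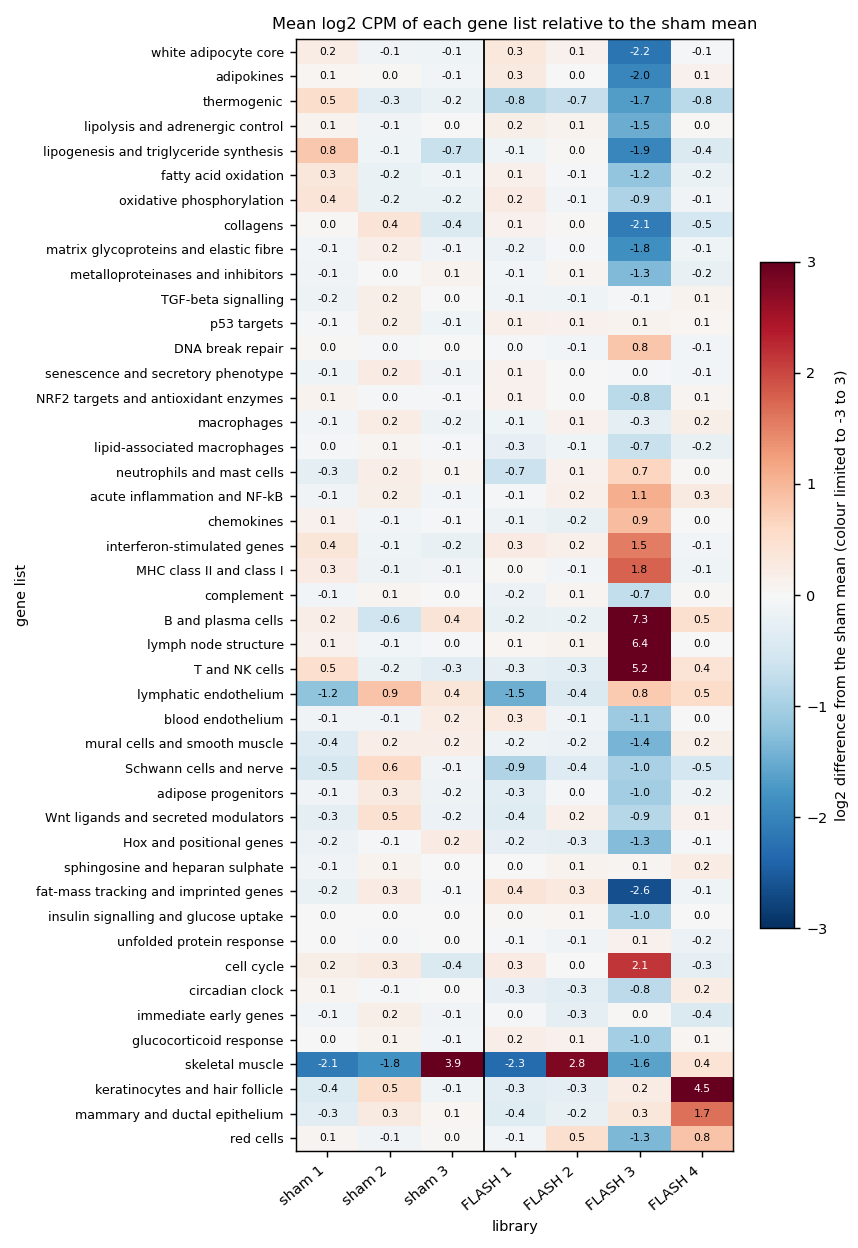
Mean log2 CPM of 45 gene lists (rows) in each sham and FLASH library (columns), as the difference from the mean of the 3 sham libraries, with colour limited to the range from -3 to 3. FLASH replicate 3 holds the extreme value of many rows, such as 7.27 for the B and plasma cell list and -2.18 for the white adipocyte list, while skeletal muscle is high in sham replicate 3 and FLASH replicate 2 and keratinocyte genes are high in FLASH replicate 4.

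Other tissues differed between libraries as well. Myh4, a myosin of fast muscle fibres, was at 313 CPM in sham replicate 3 and at most 0.549 CPM in the other 6 libraries. Relative to the sham mean, the skeletal muscle list averaged 3.94 log2 units in that library, 2.81 in FLASH replicate 2 and between -2.30 and 0.40 in the rest. Keratin genes of the basal epidermis were high in FLASH replicate 4, where Krt5 was at 30.4 CPM and Krt14 at 20.3 CPM against at most 0.163 CPM for either gene in the other 6. Krt5 was named after its values were seen. The desmosome gene Dsg1a was at 33.9 CPM there and at 0.0336 to 1.57 CPM in the others, and Perp, another desmosome gene and a p53 target, was at 32.3 CPM against 0.193 to 2.05 CPM. The part of these tissues in the results below was not tested. For the lists described below, medians on leaving out a single library are given with the library left out, as a range or as a single value. A list without such values in a set was not thereby shown to be stable there.

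Across all genes no difference between FLASH and sham passed the test. With all libraries 15266 genes were tested by edgeR's quasi-likelihood test with Benjamini-Hochberg adjustment, 0 passed an adjusted p of 0.05 (0% of the genes tested), and the lowest adjusted p was 0.998. At an unadjusted p under 0.05 there were 57 genes higher and 42 lower in FLASH by edgeR and 261 genes by DESeq2, which also called 0. If no gene differed, chance would give about 763 genes at that cut. Why fewer were found was not tested. Without the high-Cr2 libraries 15252 genes were tested, 0 passed in edgeR (0%), and the lowest adjusted p was 1.00. There, 202 genes were higher and 183 lower at an unadjusted p under 0.05, again fewer than the 763 that chance would give. With CONV left out of the fit, 211 genes had an unadjusted p under 0.05 in edgeR with FLASH replicate 3 and 671 without it. The SEs, intervals and shares within 2-fold given below come from the fits that include CONV, whose spread they share. Without the high-Cr2 libraries DESeq2 called 4 genes, described below. In that set 781 genes (5.12% of those tested) were higher in every FLASH library than in every sham library and 709 (4.65%) were lower. With all libraries the groups did not overlap in 373 genes higher (2.44%) and 375 lower (2.46%). These percentages are the background against which the counts of genes without overlap are given below. Since no gene passed, "higher" and "lower" describe the values in these libraries, and each gene's 95% interval is its own, not adjusted for the number of genes tested.

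The precision differed between the sets of libraries. The coefficient of variation between libraries that edgeR estimated over all genes was 0.543 with all libraries and 0.284 without those high in Cr2. The 95% interval of the fold change lay within 2-fold in either direction for 6892 genes (45.1%) with all libraries and for 11165 genes (73.2%) without those high in Cr2. These shares are the background for the counts of intervals within 2-fold given below. The median log2 fold change over all genes was 0.03 and -0.01. Of 15077 genes tested in both sets, 10241 (67.9%) had the same sign in both and 4836 (32.1%) had opposite signs. The fold changes below are log2 values of FLASH against sham with their standard error (SE). Where a pair of fold changes is given for a gene, the first is with all libraries and the second is without the high-Cr2 libraries, called the smaller set.

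Genes that pattern the body axis and the limbs included several that were lower in every FLASH library. Hox genes and related homeobox factors are set in the embryo and stay expressed by position in adult fat. En1, a homeobox gene that marks a fibroblast lineage of the trunk skin, was at 4.19, 5.76 and 5.07 CPM in sham and at 1.48, 1.57, 2.31 and 2.84 CPM in FLASH. Every FLASH library lay below every sham library, and the log2 fold change was -1.29 (SE 0.31) with all libraries and -1.35 (SE 0.30) without the high-Cr2 libraries. Shox2, a homeobox gene of the proximal limb, was at 36.8, 45.5 and 40.5 CPM in sham and at 8.11, 24.9, 7.89 and 17.5 CPM in FLASH. The groups did not overlap, and the log2 fold change was -1.49 (SE 0.56) and -1.29 (SE 0.35). En1 lies on chromosome 1 from 120602418 to 120607992 and Shox2 on chromosome 3 from 66971727 to 66981771 (GRCm38, GENCODE M21).

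An exon of Shox2 overlaps one of Rsrc1 on the opposite strand, and how strand was handled in the counting is not stated in the sources. Rsrc1, a splicing factor gene, had a log2 fold change of -0.37 (SE 0.13) with all libraries and -0.37 (SE 0.11) without the high-Cr2 libraries, also without overlap. The share of reads each gene could have taken from the other was not tested. Without FLASH replicate 1 the log2 fold change of Shox2 in the smaller set was -0.95.

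The Hoxc cluster on chromosome 15 had smaller differences. Hoxc10, which is expressed in the hind part of the body, was at 29.6, 35.7 and 32.8 CPM in sham and at 23.9, 24.5, 7.16 and 21.1 CPM in FLASH. Its log2 fold change was -0.77 (SE 0.53) with all libraries and -0.50 (SE 0.12) without the high-Cr2 libraries. Hoxc8 was at 160.0 to 167 CPM in sham and at 135, 138, 31.1 and 115 CPM in FLASH, with log2 fold changes of -0.65 (SE 0.59) and -0.35 (SE 0.13). Hoxc5, whose annotated exons overlap those of Hoxc10 on the same strand, had -0.59 (SE 0.41) and -0.35 (SE 0.14). Hoxc8 and Hoxc5 were named after their values were seen. In all 3 genes FLASH replicate 3 had the lowest value.

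Over the whole list of 30 Hox and positional genes, 28 were measured without the high-Cr2 libraries. Of these, 19 were lower and 9 higher in FLASH, 6 were lower without overlap and 1 higher without overlap, and the median log2 fold change was -0.24 against -0.01 over all genes. With all libraries 22 of 27 were lower, 6 of them without overlap, with a median of -0.38. Leaving out 1 library gave medians from -0.34 (without sham replicate 1) to -0.12 (without sham replicate 3) in the smaller set and from -0.49 (without FLASH replicate 4) to -0.25 (without FLASH replicate 3) with all. The mean of the list relative to sham was -0.17, -0.067 and 0.23 log2 units in sham replicates 1 to 3. In FLASH replicates 1 to 4 it was -0.25, -0.28, -1.31 and -0.065, so the groups overlapped. FLASH replicate 3 was also low in white adipocyte genes (list mean -2.18), so its low values are not particular to positional genes. No member of the list passed the edgeR test in either set.

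**Figure D2:**
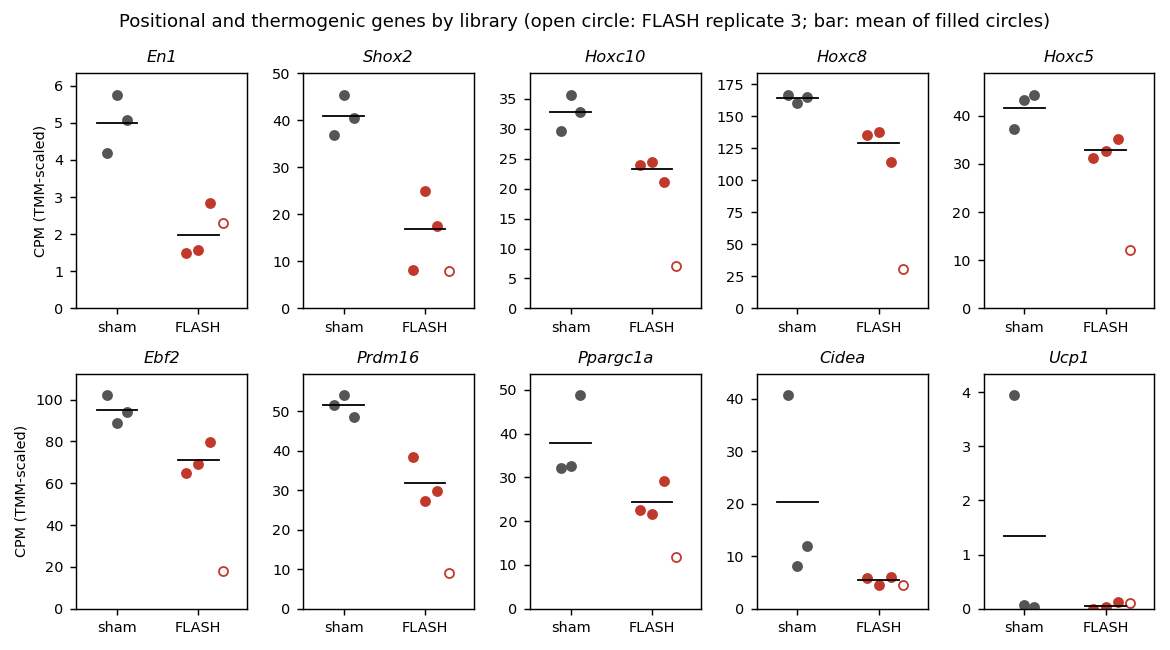
CPM (vertical axis, from 0) of 5 positional and 5 thermogenic genes in each sham library (grey) and each FLASH library (red), with FLASH replicate 3 as an open circle and bars at the means of the filled circles. En1 ranges from 1.48 to 2.84 CPM in FLASH and from 4.19 to 5.76 CPM in sham, and Ucp1 exceeds 0.124 CPM in sham replicate 1 alone.

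Genes of the thermogenic programme were lower in FLASH, and sham replicate 1 was far above the other sham libraries in some of them. Ebf2, a factor of beige and brown fat precursors, was at 102, 88.9 and 94.2 CPM in sham and at 64.9, 69.3, 18.0 and 79.8 CPM in FLASH. Its log2 fold change was -0.71 (SE 0.58) with all libraries and -0.42 (SE 0.12) without the high-Cr2 libraries. Prdm16, a regulator of brown and beige fate, was at 48.6 to 54.2 CPM in sham and at 38.5, 27.2, 8.93 and 29.9 CPM in FLASH, with log2 fold changes of -0.98 (SE 0.60) and -0.70 (SE 0.32). Ppargc1a, a coactivator of mitochondrial genes, had -0.83 (SE 0.47) and -0.64 (SE 0.24). In these 3 genes no FLASH library reached the lowest sham library. FLASH replicate 3 was also low in white adipocyte genes, with a list mean of -2.18 log2 units relative to sham. Its values below sham are therefore not particular to these genes, and the order rests on FLASH replicates 1, 2 and 4.

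Cidea, a lipid droplet protein gene of brown and beige fat, was at 40.7 CPM in sham replicate 1 and at 8.07 and 12 CPM in the other two sham libraries, against 4.46 to 5.96 CPM in FLASH. Its log2 fold change was -1.96 (SE 1.03) with all libraries and -1.90 (SE 0.89) without the high-Cr2 libraries, and without sham replicate 1 these were -0.95 and -0.88. Ucp1, the mitochondrial uncoupling protein, was at 3.95 CPM in sham replicate 1 and at 0 to 0.124 CPM in the other 6 libraries, and it was named after its values were seen. Of the 17 measured thermogenic genes, 16 were lower without the high-Cr2 libraries, 8 of them without overlap, with a median of -0.64. With all libraries 16 of 16 were lower, 6 without overlap, with a median of -0.78. Leaving out 1 library gave medians from -0.84 (without FLASH replicate 2) to -0.45 (without sham replicate 1) in the smaller set. With all libraries the medians ran from -0.98 (without FLASH replicate 2) to -0.62 (without sham replicate 1). The mean of the list relative to sham was -0.83, -0.68, -1.68 and -0.81 log2 units in FLASH replicates 1 to 4 and 0.52, -0.31 and -0.21 in the sham libraries. In this bulk RNA, fewer cells of a type and less RNA per cell cannot be told apart.

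Chaperones of the endoplasmic reticulum were lower in FLASH by small amounts. These proteins fold and check secreted and membrane proteins, and their genes are known targets of the unfolded protein response, in which ATF6 and XBP1 act on an element of their promoters. Promoters are shown for 3 such genes that were lower without overlap in the smaller set and have the element in the bases shown. They are the bases before the RefSeq start (GRCm38.p6), without those in GENCODE exons, and capitals mark each match to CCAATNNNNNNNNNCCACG on either strand.
Calr (chr8:84846935-84847181, minus strand): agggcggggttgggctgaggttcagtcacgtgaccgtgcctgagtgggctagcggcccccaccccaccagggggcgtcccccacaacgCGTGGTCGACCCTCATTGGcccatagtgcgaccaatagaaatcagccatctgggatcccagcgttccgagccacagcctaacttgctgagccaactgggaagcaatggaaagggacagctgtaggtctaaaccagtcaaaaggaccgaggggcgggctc
Hsp90b1 (chr10:86705510-86705694, minus strand): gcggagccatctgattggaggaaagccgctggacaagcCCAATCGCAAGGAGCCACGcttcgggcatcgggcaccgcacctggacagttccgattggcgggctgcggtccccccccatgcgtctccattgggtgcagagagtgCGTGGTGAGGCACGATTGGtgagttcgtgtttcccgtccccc
Canx (chr11:50325674-50325923, minus strand): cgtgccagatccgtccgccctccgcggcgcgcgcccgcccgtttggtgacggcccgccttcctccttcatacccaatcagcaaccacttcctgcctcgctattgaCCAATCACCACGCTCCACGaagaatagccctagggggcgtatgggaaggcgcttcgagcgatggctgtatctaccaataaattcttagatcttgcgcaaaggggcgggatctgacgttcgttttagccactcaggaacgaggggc

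The element was found in the 250 bases before the start of 37 of 32851 promoters (0.113%), and in 7 of the 18 genes of the unfolded protein response list that had an entry. Of the 6 list genes that were lower without overlap in the smaller set it was found in 4, and of the other 12 in 3. Those 4 were Calr, Hsp90b1, Canx and Hspa5, while Pdia3 and Pdia4 had none. The other 3 were Pdia6, Dnajc3 and Creld2, in which FLASH overlapped sham in both sets and whose promoters are not shown. A heat shock element (GAANNTTCNNGAA or TTCNNGAANNTTC, the reverse complement of each other) was searched in the same windows and was found in 153 of 32851 promoters (0.466%) and in 0 of the 18. Both motifs were chosen after the values of these genes were seen, and a match describes letters and not a bound site.

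Calr, a calcium-binding chaperone for glycoproteins, was at 383, 429.7 and 443 CPM in sham and at 326, 346, 302 and 303 CPM in FLASH. Its log2 fold change was -0.39 (SE 0.17) with all libraries and -0.37 (SE 0.12, 95% interval -0.66 to -0.09) without the high-Cr2 libraries. Pdia3, a disulfide isomerase that works with calreticulin, was at 199.6, 215 and 209.6 CPM in sham and at 174, 165, 162 and 149 CPM in FLASH, with -0.36 (SE 0.15) and -0.36 (SE 0.10). Hspa5, the main Hsp70 of this compartment, was at 329, 308 and 320.3 CPM in sham and at 279, 296, 264 and 248 CPM in FLASH, with -0.23 (SE 0.21) and -0.23 (SE 0.11). In all 3 genes every FLASH library, FLASH replicate 3 included, lay below every sham library.

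Canx, the membrane-bound partner of calreticulin, was at 344 to 357 CPM in sham and at 328, 323, 274 and 317 CPM in FLASH, with -0.18 (SE 0.17) and -0.13 (SE 0.10). Pdia4, another disulfide isomerase, was at 114 to 125 CPM in sham and at 95.3 to 104 CPM in FLASH, with log2 fold changes of -0.23 (SE 0.37) and -0.23 (SE 0.10). Hsp90b1, the Hsp90 of the endoplasmic reticulum, was at 337, 341 and 379 CPM in sham and at 289, 287, 346 and 298 CPM in FLASH, with -0.21 (SE 0.43) and -0.28 (SE 0.11), so that FLASH replicate 3 overlapped sham. Hsp90aa1, a cytosolic Hsp90 outside the list, was at 140, 121 and 134 CPM in sham and at 104, 96.6, 93.3 and 91.7 CPM in FLASH, with -0.45 (SE 0.13) and -0.44 (SE 0.10). Hspa5, Canx and Pdia4 were named after their values were seen. Exons of Pdia3 overlap Catsper2 and those of Hsp90b1 overlap 1810014B01Rik on the opposite strand.

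The rest of the list did not share this order. Of its 20 measured genes, 13 were lower and 7 higher in FLASH in both sets. Without the high-Cr2 libraries 6 were lower and 1 higher without overlap, with a median of -0.09, and with all libraries 5 were lower and 1 higher, with a median of -0.05. The median in the smaller set moved from -0.11 (without FLASH replicate 4) to -0.044 (without sham replicate 3) over single omissions. The gene higher without overlap was Atf4, the transcription factor of the integrated stress response, at 75.2 to 80.1 CPM in sham and at 88.2, 87.1, 105 and 80.3 CPM in FLASH. It was named after its values were seen, and its log2 fold change was 0.20 (SE 0.15) and 0.12 (SE 0.10). The intervals of 19 of the 20 genes lay within 2-fold in the smaller set.

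**Figure D3:**
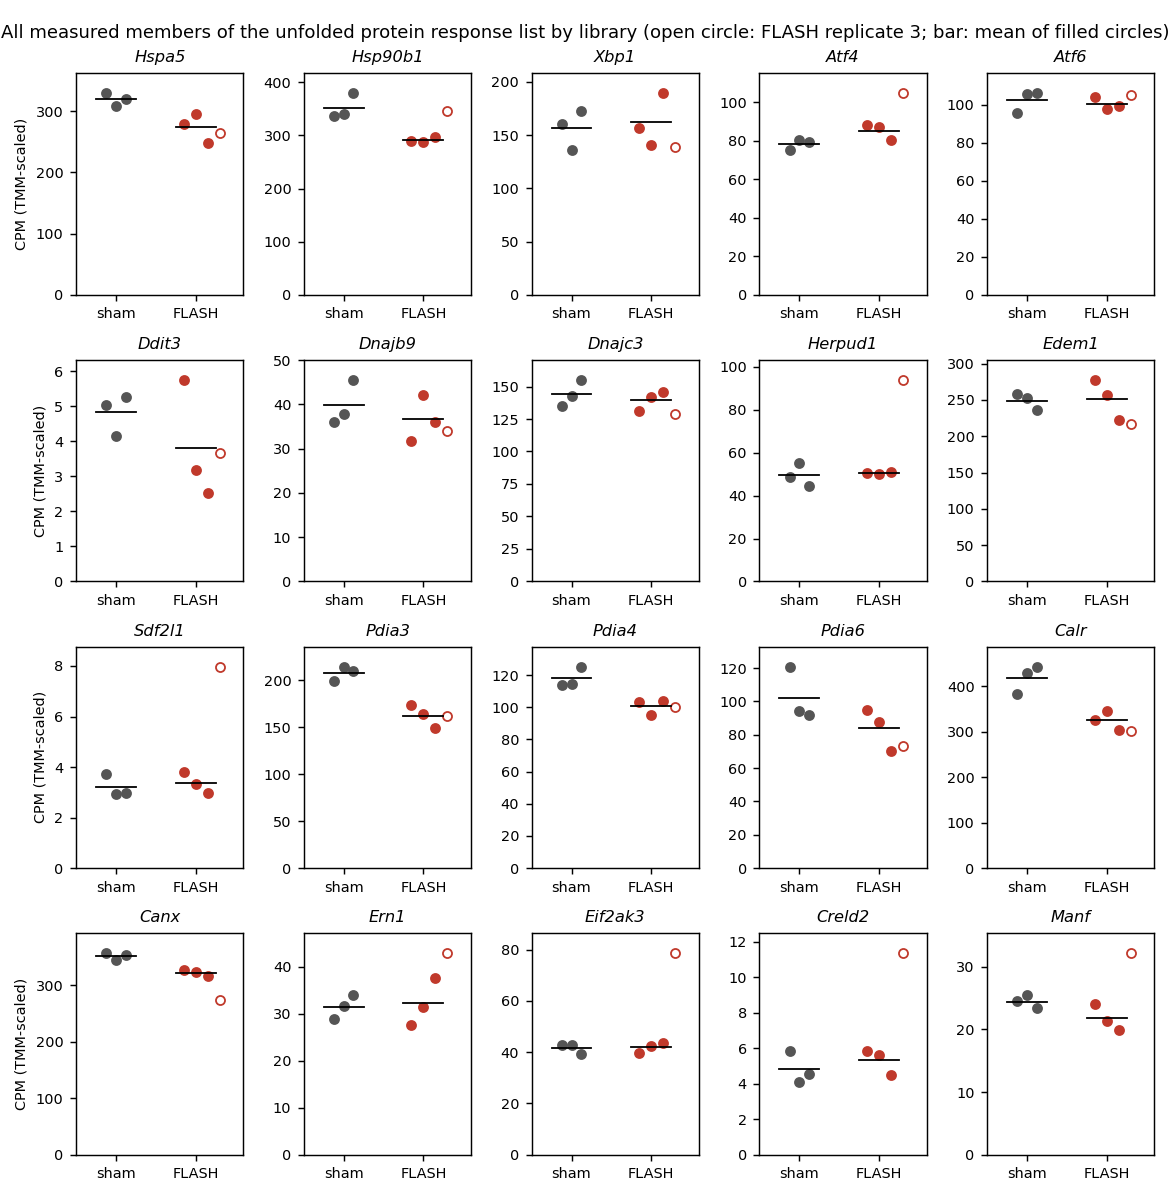
CPM (vertical axis, from 0) of the 20 measured genes of the unfolded protein response list in each sham library (grey) and each FLASH library (red), with FLASH replicate 3 as an open circle and bars at the means of the filled circles. Calr, Pdia3, Pdia4, Hspa5 and Canx lie below sham in all 4 FLASH libraries, and Hsp90b1 does in the 3 filled circles (287 to 298 CPM against 337 to 379 CPM).

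DESeq2 called 4 genes in the set without the high-Cr2 libraries, and edgeR called none of them. Mapt, the microtubule protein tau, was at 9.99, 7.39 and 13.0 CPM in sham and at 3.97, 2.67, 1.27 and 3.52 CPM in FLASH. Every FLASH library was below every sham library, with an edgeR log2 fold change of -1.82 (SE 0.62) with all libraries and -1.59 (SE 0.25) without the high-Cr2 libraries, and a DESeq2 adjusted p of 0.000226. C130026I21Rik was at 2.64, 4.07 and 13.4 CPM in sham and at 0.999, 0.659, 4.20 and 0.618 CPM in FLASH, with -2.06 (SE 1.06) and -3.15 (SE 0.63) and a DESeq2 adjusted p of 0.00176 in the smaller set. FLASH replicate 3 overlapped sham for this gene, whose exons overlap other annotated genes on both strands.

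Slc5a3, a transporter of the osmolyte myo-inositol, was at 471, 674 and 610.2 CPM in sham and at 893, 1049.8, 183 and 1199.6 CPM in FLASH. FLASH replicates 1, 2 and 4 lay above sham and FLASH replicate 3 below it, with log2 fold changes of 0.51 (SE 0.66) and 0.83 (SE 0.18) and a DESeq2 adjusted p of 0.0322 in the smaller set. Its annotated exons overlap those of Mrps6 on the same strand. Slc35g1, a member of the nucleotide sugar transporter family, was at 20.7, 17 and 18.5 CPM in sham and at 29.2, 29.1, 19.6 and 26.8 CPM in FLASH, with 0.48 (SE 0.25) and 0.59 (SE 0.11) and a DESeq2 adjusted p of 0.0322 in the smaller set. With all libraries DESeq2 called none of the 4.

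Other genes lower in FLASH that the p-values ranked first included secreted and signalling proteins. Dkk2, a Wnt antagonist, was at 4.46, 6.25 and 1.98 CPM in sham and at 1.21 to 1.76 CPM in FLASH, and Pon1, a paraoxonase, was at 13.7, 14.6 and 5.95 CPM in sham and at 2.00 to 4.29 CPM in FLASH. Their log2 fold changes were -1.52 (SE 0.45) and -1.57 (SE 0.49) for Dkk2 and -1.81 (SE 0.51) and -1.64 (SE 0.41) for Pon1, and sham replicate 3 was the lowest sham library in both. Rarres2, which encodes the adipokine chemerin, was at 116 to 165 CPM in sham and at 89.5, 88.8, 33.5 and 87.6 CPM in FLASH, with -0.89 (SE 0.50) and -0.66 (SE 0.15). It had the lowest fold change of the adipokine list in both sets. Of that list 6 genes were higher and 5 lower in the smaller set, with a median of 0.08. With all libraries 4 were higher and 8 lower, with a median of -0.25. FLASH replicate 3 was low in this list, with a mean of -1.95 log2 units relative to sham. Ccdc3, a secreted protein of fat and endothelium, had -0.77 (SE 0.57) and -0.53 (SE 0.11), and Ldlrad4, an inhibitor of TGF-beta signalling, had -0.53 (SE 0.16) and -0.57 (SE 0.14). Akap5, a kinase anchoring protein, was at 1.42 to 1.65 CPM in FLASH replicates 1, 2 and 4, 5.47 CPM in FLASH replicate 3 and 2.67 to 4.40 CPM in sham, with -0.51 (SE 0.66) and -1.23 (SE 0.26). Shfm1, a proteasome subunit, and the small Cajal body RNA Scarna13 had log2 fold changes of -0.78 (SE 0.24) and -0.74 (SE 0.23) and of -1.02 (SE 0.31) and -1.06 (SE 0.33).

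Several genes ranked first for higher values without the high-Cr2 libraries had FLASH replicate 3 below every sham library. Chst1, a sulfotransferase of keratan sulfate, was at 149, 131 and 143 CPM in sham and at 219, 205, 52.3 and 225 CPM in FLASH, with 0.31 (SE 0.50) and 0.61 (SE 0.12). Slc7a10, an amino acid transporter of adipocytes, was at 191 to 233 CPM in sham and at 322, 314, 49.2 and 304 CPM in FLASH, with 0.21 (SE 0.66) and 0.54 (SE 0.13). Tdrp had the same order, with 64.9 to 84.6 CPM in sham, 102 to 117 CPM in FLASH replicates 1, 2 and 4 and 35.3 CPM in FLASH replicate 3, and 0.29 (SE 0.59) and 0.54 (SE 0.12). Card14 had this order too, with 0.58 (SE 1.02) and 0.94 (SE 0.22). C2cd2l differed, as its FLASH replicate 3 (27.3 CPM) lay among the sham libraries (22.9 to 29.6 CPM), with 0.51 (SE 0.24) and 0.61 (SE 0.13).

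Other genes were higher in all 4 FLASH libraries than in every sham library. Fkbp5, a cochaperone that glucocorticoids induce, was at 28.4, 42.4 and 34.6 CPM in sham and at 53.2, 50.5, 53.1 and 55.4 CPM in FLASH, with 0.60 (SE 0.22) and 0.59 (SE 0.21). Its fold change was the highest of the glucocorticoid response list in both sets. Of the 14 genes of that list 7 were higher and 7 lower with all libraries, with a median of -0.01. In the smaller set 9 were higher and 5 lower, with a median of 0.12. Single omissions moved the median with all libraries from -0.18 (without FLASH replicate 1) to 0.12 (without FLASH replicate 3). Sphk1, which makes sphingosine 1-phosphate, was at 0.395, 0.521 and 0.168 CPM in sham and at 0.878 to 1.12 CPM in FLASH, with 1.50 (SE 0.48) and 1.51 (SE 0.45). Its lowest sham value was near the floor. Kcnt1, a potassium channel, was at 0.336 to 0.425 CPM in sham and at 0.895 to 1.28 CPM in FLASH, with 1.43 (SE 0.72) and 1.47 (SE 0.33). Mbd1, a protein that binds methylated DNA, had 0.41 (SE 0.13) and 0.36 (SE 0.10), and Adgrl1, an adhesion receptor, had 0.57 (SE 0.19) and 0.46 (SE 0.13). Casz1, Frat2, Tmem8 and Pvrl4 also showed this order, with log2 fold changes of 0.63, 0.86, 0.97 and 1.23 with all libraries and 0.57, 0.77, 0.57 and 1.00 in the smaller set.

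Most adipocyte genes had intervals within 2-fold of sham once the high-Cr2 libraries were left out, as did 73.2% of all genes tested. Pparg, the master regulator of adipocytes, was at 229, 229 and 260.2 CPM in sham and at 238, 199.8, 59.3 and 247 CPM in FLASH. In the smaller set its log2 fold change was -0.08 with a 95% interval from -0.54 to 0.39, and that of Adipoq was -0.08 from -0.55 to 0.39. With all libraries these intervals were -1.74 to 1.01 and -1.88 to 1.11. Lep, the hormone that tracks fat mass, ranged from 1141 to 2035 CPM in sham and was at 2681, 1387, 90.8 and 768 CPM in FLASH, with an interval from -0.90 to 1.09 in the smaller set and -2.31 to 1.75 with all. Of the 24 white adipocyte genes, 17 were higher and 7 lower in the smaller set with a median of 0.08, and 19 of the 24 intervals lay within 2-fold. With all libraries 20 of 24 were lower with a median of -0.21, and 0 of the 24 intervals lay within 2-fold. Leaving out 1 library gave medians from 0.00044 (without FLASH replicate 1) to 0.26 (without sham replicate 1) in the smaller set and from -0.43 (without FLASH replicate 1) to 0.079 (without FLASH replicate 3) with all.

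Among lipid enzymes, sham replicate 1 was high. Acly, which makes acetyl-CoA for fat synthesis, was at 1894, 672 and 287 CPM in sham and at 335, 627, 214 and 391 CPM in FLASH. Elovl6 and Scd2, which elongate and desaturate fatty acids, were at 56.9 to 471 CPM and 447 to 1488 CPM in sham and at 29.0 to 121 CPM and 247 to 786 CPM in FLASH. The groups overlapped in each of these genes. Acly had -1.28 (SE 0.99) and -1.08 (SE 0.92) and Elovl6 -1.59 (SE 1.18) and -1.34 (SE 1.11), and without sham replicate 1 their values in the smaller set were -0.10 and -0.05. Of 18 lipogenesis genes, 14 were lower in the smaller set with a median of -0.22 and 16 with all libraries with a median of -0.55, 0 of them without overlap in either. Without sham replicate 1 the median in the smaller set was 0.26, so its direction rested on that library. Lpl and Retn, a lipase that takes up plasma lipid and an adipocyte hormone, had log2 fold changes of 0.18 (SE 0.85) and 0.51 (SE 0.28) and of 0.08 (SE 0.75) and 0.41 (SE 0.22). Of 18 lipolysis genes 12 were higher in the smaller set, 2 without overlap, with a median of 0.13, and with all libraries 5 were higher and 13 lower, 0 without overlap, with a median of -0.10. The lipolysis median in the smaller set moved from 0.075 (without sham replicate 3) to 0.15 (without sham replicate 1). With all libraries it turned sign, from -0.28 (without FLASH replicate 1) to 0.13 (without FLASH replicate 3). Abhd5, the activator of triglyceride lipase, had 0.11 (SE 0.62) and 0.38 (SE 0.21).

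Targets of p53 and genes of DNA repair report on the response of cells to DNA damage. Cdkn1a, the cell cycle inhibitor p21, was at 29.8, 29.5 and 20.1 CPM in sham and at 57.5, 41.5, 15.6 and 18.0 CPM in FLASH, so that FLASH replicates 1 and 2 lay above sham and replicates 3 and 4 below it. Its log2 fold changes were 0.33 (SE 0.48) and 0.55 (SE 0.39) with an interval in the smaller set from -0.36 to 1.46, and without FLASH replicate 1 the smaller set gave 0.17. Perp, high in FLASH replicate 4, had 2.84 (SE 1.81) and 3.25 (SE 1.67), and without that library -1.65 in the smaller set. Mdm2, the ligase that restrains p53, was at 43.3 to 46.1 CPM in sham and at 46.7, 48.7, 67.0 and 41.9 CPM in FLASH. Its 95% interval in the smaller set was -0.23 to 0.26, that of Ccng1 was -0.28 to 0.39, that of Zmat3 was -0.05 to 0.39 and that of Eda2r was -0.46 to 0.92. Phlda3 had an interval from -1.35 to 0.87. Of 27 measured targets 18 were higher and 9 lower, with a median of 0.06 and 18 of 27 intervals within 2-fold. Over all genes tested in that set 73.2% of intervals lay within 2-fold. With all libraries 16 of 28 were higher with a median of 0.12 and 11 of 28 intervals within 2-fold. The median in the smaller set ranged over single omissions from 0.043 (without sham replicate 1) to 0.12 (without sham replicate 2). Of 26 DNA break repair genes, 18 were lower in the smaller set, 3 without overlap, with a median of -0.05, and 20 were higher with all libraries, with a median of 0.18. Single omissions moved the repair median from -0.098 (without FLASH replicate 4) to -0.030 (without sham replicate 3) in the smaller set and from -0.052 (without FLASH replicate 3) to 0.26 (without FLASH replicate 1) with all.

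Inflammatory and immune genes differed between FLASH replicate 3 and the other FLASH libraries. Socs3, a feedback inhibitor of cytokine signalling, was at 7.17, 7.39 and 7.76 CPM in sham and at 8.66, 6.11, 35.5 and 8.95 CPM in FLASH. Its log2 fold change was 1.00 (SE 0.57) with all libraries and 0.08 with an interval from -0.33 to 0.50 without the high-Cr2 libraries. In the CONV libraries Socs3 was at 38.5, 53.2 and 50.4 CPM. In FLASH against CONV edgeR called 2 of 15252 genes (0.0131%) without the high-Cr2 libraries and 0 of 15266 (0%) with all, and Socs3 was 1 of the 2, with a log2 difference of -2.48 (SE 0.20) and an adjusted p of 0.0126 over 3 FLASH and 2 CONV libraries. With all libraries the adjusted p of that difference was 0.999.

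Ccl2, which attracts monocytes, was at 2.08 to 3.84 CPM in sham and at 1.61 to 3.66 CPM in FLASH. Il6 was at or near the floor in all 7 libraries, at no more than 0.193 CPM. Tnfaip3, a brake on NF-kB, was at 11.8 to 13.3 CPM in sham and at 16.2, 14.0, 106 and 16.1 CPM in FLASH, and Zbp1, a nucleic acid sensor, was at 6.87 to 8.99 CPM in sham and at 9.02, 10.4, 62.9 and 9.51 CPM in FLASH. Both were higher without overlap, with log2 fold changes of 1.59 (SE 0.99) and 0.28 (SE 0.18) for Tnfaip3 and 1.56 (SE 0.86) and 0.30 (SE 0.18) for Zbp1. Of 30 interferon-stimulated genes 28 were higher with all libraries, with a median of 0.49, and 16 of 30 without the high-Cr2 libraries, with a median of 0.01. The interferon median moved from -0.052 (without sham replicate 2) to 0.25 (without sham replicate 1) in the smaller set and was 0.0075 with all libraries but FLASH replicate 3. Oas2 had 0.87 (SE 0.41) and 0.42 (SE 0.28) and Oas3 3.05 (SE 1.31) and 0.77 (SE 0.36).

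Cxcl13, the chemokine that draws B cells into follicles, lay on different sides of sham in the 2 sets. It was at 3.13, 3.06 and 2.59 CPM in sham and at 0.636, 1.28, 75.2 and 1.70 CPM in FLASH. The 3 FLASH libraries without high Cr2 lay below sham, with a log2 fold change of -1.29 (SE 0.35), and with FLASH replicate 3 it was 2.75 (SE 1.79). Adgre1, the macrophage marker F4/80, was at 33.2 to 41.2 CPM in sham and at 31.3, 46.0, 21 and 40.3 CPM in FLASH. Cd163 and Mertk, markers of resident macrophages, had log2 fold changes of 0.11 (SE 0.94) and 0.48 (SE 0.49) and of 0.31 (SE 0.26) and 0.42 (SE 0.24). Spp1, which lipid-laden macrophages secrete, was at 0.698, 2.12 and 1.04 CPM in sham and at 0.0908 to 0.616 CPM in FLASH, with -1.81 (SE 0.63) and -2.18 (SE 0.65). Its lowest FLASH value was near the floor, and it had the lowest fold change of the lipid-associated macrophage list in both sets. Of the 14 measured genes of that list 10 were lower in the smaller set with a median of -0.11. With all libraries 12 were lower with a median of -0.20. Of 21 macrophage genes 15 were higher in the smaller set with a median of 0.06 and 12 with all libraries with a median of 0.03. The macrophage median lay on both sides of 0 over single omissions, from -0.019 (without FLASH replicate 2) to 0.16 (without FLASH replicate 1) in the smaller set. With all libraries it ran from -0.071 (without sham replicate 3) to 0.13 (without sham replicate 2).

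**Figure D4:**
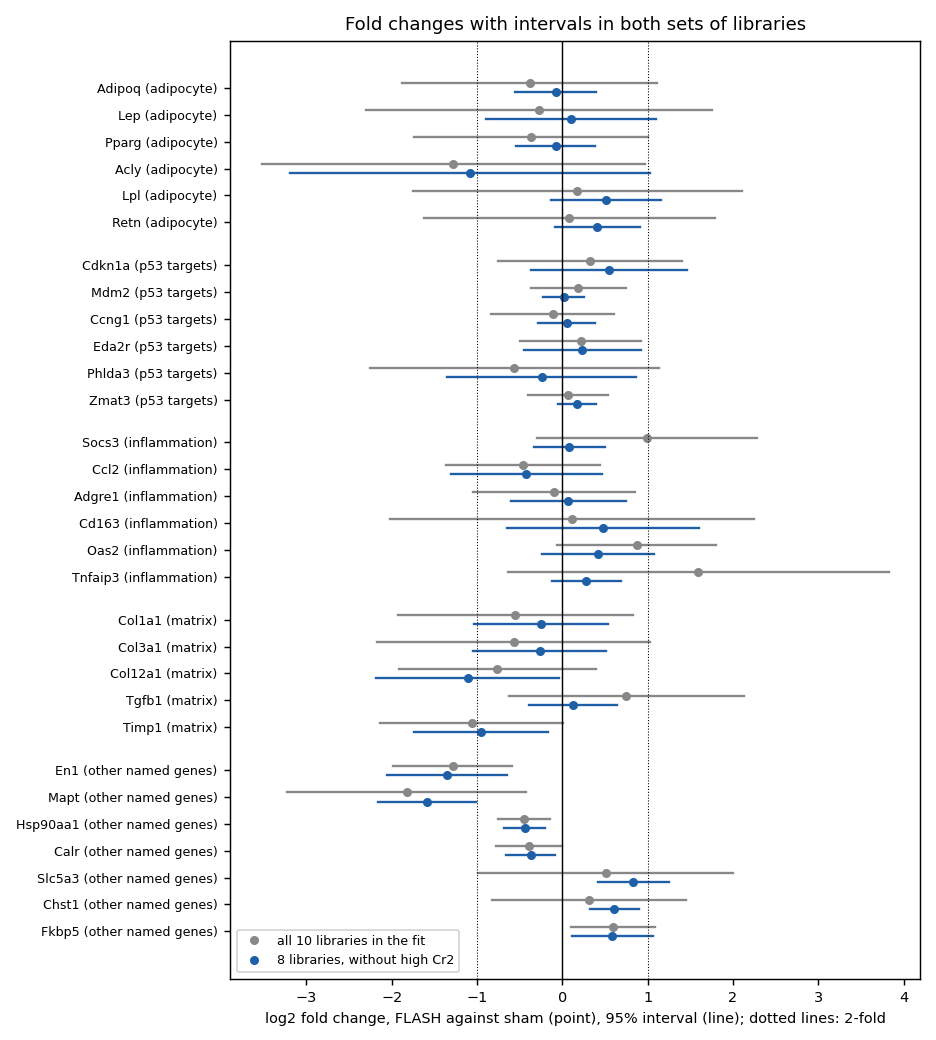
Log2 fold change of FLASH against sham (points) with 95% intervals (lines) for named genes (rows, with their group), in the fit to all 10 libraries (grey) and to the 8 libraries without high Cr2 (blue), with dotted lines at 2-fold. The blue interval of Mdm2 runs from -0.23 to 0.26 and that of Pparg from -0.54 to 0.39, while that of En1 runs from -2.06 to -0.65.

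Collagen and matrix genes, which are measured as a sign of fibrosis, varied between the libraries of each group. Col1a1 was at 756, 1116 and 524 CPM in sham and at 788, 775, 155 and 462 CPM in FLASH, and its interval was -1.93 to 0.82 with all libraries and -1.03 to 0.53 in the smaller set. Col3a1 was at 2316 to 3883 CPM in sham and at 2754, 3025, 581 and 1875 CPM in FLASH, with intervals of -2.17 to 1.03 and -1.05 to 0.51. Col12a1 and Col14a1 had log2 fold changes of -0.76 (SE 0.51) and -1.11 (SE 0.46) and of -1.02 (SE 0.59) and -0.76 (SE 0.50). Of 17 collagens 7 were higher and 10 lower in the smaller set, with a median of -0.03, and 9 of 17 intervals lay within 2-fold. With all libraries 1 was higher and 16 lower, with a median of -0.35 and 1 of 17 intervals within 2-fold. Leaving out 1 library gave medians from -0.18 (without FLASH replicate 1) to 0.19 (without FLASH replicate 4) in the smaller set, so their direction there depends on the library. Timp1, an inhibitor of matrix proteases, was at 0.607 to 0.748 CPM in sham and at 0.231 to 0.424 CPM in FLASH. Tgfb1, the main fibrotic cytokine, was at 24.7 to 32.9 CPM in sham and at 41.5, 29.0, 98.2 and 23.8 CPM in FLASH, and Smad3, which carries its signal to the nucleus, was at 63.3 to 65.7 CPM in sham and at 52.0 to 60.3 CPM in FLASH.

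Schwann cell and nerve genes were lower in FLASH in most cases. Mbp, the myelin basic protein, was at 62.6, 94.3 and 57.1 CPM in sham and at 42.7, 52.5, 85.7 and 49.9 CPM in FLASH, so that only FLASH replicate 3 overlapped sham. Its log2 fold change was -0.31 (SE 0.30) with all libraries and -0.57 (SE 0.21) without the high-Cr2 libraries. Cdh19, a cadherin of the Schwann lineage, had -0.97 (SE 0.45) and -0.75 (SE 0.30), and its groups overlapped in both sets. Of 17 genes 16 were lower in the smaller set, 3 without overlap, with a median of -0.63, and 14 with all libraries, 0 without overlap, with a median of -0.69. Without sham replicate 2 these medians were -0.31 and -0.37. The mean of the list relative to sham was -0.47, 0.58 and -0.11 log2 units in sham replicates 1 to 3. In FLASH replicates 1 to 4 it was -0.91, -0.38, -0.96 and -0.54, so the groups overlapped. The endothelial gene Pecam1 was at 166 to 243 CPM in sham and at 178 to 281 CPM in FLASH, and of 20 blood endothelial genes 13 were higher in the smaller set with a median of 0.06 and 20 intervals within 2-fold, against 5 higher, a median of -0.13 and 7 intervals within 2-fold with all libraries. Their median in the smaller set moved from -0.019 (without FLASH replicate 1) to 0.17 (without FLASH replicate 2). With all libraries it ran from -0.28 (without FLASH replicate 1) to 0.061 (without FLASH replicate 3).

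Further lists gave counts in which the sets differed. Of 19 measured genes in a list of genes that track fat mass and imprinted genes, 14 were higher in the smaller set with a median of 0.28. With all libraries 8 were higher with a median of -0.01. Single omissions gave medians for this list from 0.12 (without sham replicate 1) to 0.40 (without sham replicate 2) in the smaller set. With all libraries they ran from -0.36 (without FLASH replicate 1) to 0.28 (without FLASH replicate 3). Bmp3, a BMP family member of this list, had 0.18 (SE 0.80) and 0.54 (SE 0.19). Of 20 insulin pathway genes 13 were higher in the smaller set with a median of 0.07, and 7 with all libraries with a median of -0.13. The insulin median in the smaller set moved from 0.044 (without FLASH replicate 4) to 0.092 (without sham replicate 1). With all libraries it turned sign, from -0.19 (without FLASH replicate 4) to 0.074 (without FLASH replicate 3). The adaptor Irs2 was at 64.3 to 85.4 CPM in sham and at 107, 108, 45 and 103 CPM in FLASH. Of 5 measured red cell genes 4 were higher in the smaller set with a median of 0.63 and 3 with all libraries with a median of 0.31, and without FLASH replicate 4 these medians were 0.20 and -0.20. The prolactin receptor Prlr had 0.43 (SE 0.52) and 0.74 (SE 0.29) and the zinc finger factor Zbtb16 had 0.15 (SE 0.73) and 0.48 (SE 0.24).

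Clock and immediate early genes were mostly lower in both sets. Of 18 clock genes 13 were lower in the smaller set with a median of -0.10 and 14 with all libraries with a median of -0.23. The clock median moved from -0.21 (without FLASH replicate 4) to -0.037 (without FLASH replicate 2) in the smaller set. Per1, a repressor of the clock, had 0.33 (SE 0.28) and 0.47 (SE 0.17) and Hlf, a clock output factor, had -0.80 (SE 0.55) and -0.60 (SE 0.34). Of 18 immediate early genes 13 were lower in the smaller set with a median of -0.25 and 12 with all libraries with a median of -0.19, and without sham replicate 2 these medians were -0.13 and -0.018. Jund had -0.26 (SE 0.26) and -0.38 (SE 0.15) and Egr1 -0.79 (SE 0.48) and -0.89 (SE 0.48). The hour of collection is not stated in the labels, and its part in these values was not tested.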

How the data were processed

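The authors deposited 1 file per library of raw counts for each gene symbol, not normalized. The submitters' processing notes name kallisto 0.5.0 and the build mm10, and per the labels' protocols libraries were stranded total RNA depleted of ribosomal RNA. Not given in the sources used here are the aligner, the annotation and how strand was counted. The 5 entries naming no gene were left out (52.0% to 69.6% of reads), leaving 24421 gene symbols. In R 4.3.3, edgeR 4.0.16 fitted 1 mean per group (sham, FLASH, CONV) with filterByExpr, TMM factors and robust quasi-likelihood dispersion. Tests were two-sided with Benjamini-Hochberg adjustment over all genes tested. Alternatives were DESeq2 1.42.0, limma 3.58.1, other scalings and filters, a replicate block and leaving out each library. The members and the 45 gene lists were chosen with earlier results of these data known, so lists have counts and medians and no test. Genes were named by a rule: up to 8 per direction and set by smallest p without overlap at a mean of 1 CPM or more, up to 3 per list by p in the direction of the list's median, 19 genes of fat, damage and inflammation, and any gene called. Not all genes the rule allows were described. The edgeR steps were tested on simulated counts in which no library carried other tissue, so that test does not cover libraries such as FLASH replicate 3.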

Additional observations from a re-analysis of the deposited data

Results flagged for a closer look

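Values of 1 FLASH library far from the other 3 (a gap above Dixon's 95% critical value) were found in 34 of 146 quantities checked in the FLASH group. Chance flags about 1 in 20 groups, but that rate cannot be set against these counts, because Cr2 chose FLASH replicate 3 as the library to leave out and several of the genes were named for a small p without it. FLASH replicate 3 held 27 of them. Its list means relative to sham were 7.27 log2 units for B and plasma cells, 6.38 for lymph node structure, 5.24 for T and NK cells, 1.78 for MHC genes and 0.83 for DNA break repair. They were -2.18 for white adipocyte genes, -1.95 for adipokines, -1.83 for matrix glycoproteins, -1.68 for thermogenic genes, -1.49 for lipolysis, -1.31 for Hox and positional genes, -1.01 for the glucocorticoid response, -0.96 for insulin signalling and -0.82 for NRF2 targets. Its genes above the other FLASH libraries were Cr2 (416 CPM), Tnfaip3 (106 CPM), Cxcl13 (75.2 CPM), Zbp1 (62.9 CPM), Oas3 (48.9 CPM), Glycam1 (36.8 CPM), Socs3 (35.5 CPM), Akap5 (5.47 CPM) and C130026I21Rik (4.20 CPM). Those below were Chst1 (52.3 CPM), Slc7a10 (49.2 CPM), Irs2 (45 CPM) and Rarres2 (33.5 CPM).

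FLASH replicate 4 stood apart by a mean of 4.46 log2 units above sham for keratinocyte and hair follicle genes, with Dsg1a at 33.9 CPM, Perp at 32.3 CPM, Krt5 at 30.4 CPM and Krt14 at 20.3 CPM. FLASH replicate 1 was high in Shfm1 (8.30 CPM) and FLASH replicate 2 in Myh4 (0.549 CPM).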

How the results depend on the processing

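The number of genes called in FLASH against sham was 0 under all 20 alternatives with all libraries and under 17 of 18 without the high-Cr2 libraries, the exception being DESeq2 with 4. No alternative moved the median over all genes by more than 0.05 log2 units. In the smaller set the lowest adjusted p in edgeR was 0.122 when only FLASH and sham libraries were fitted. The deviations of same-numbered sham and FLASH libraries had correlations of 0.29, -0.043 and -0.016, and those of other pairs ran from -0.34 to 0.22. The deviations were taken from group means that include FLASH replicate 3, so they cannot decide whether the numbers pair the libraries. With the replicate block 0 genes passed in both sets, with 46 and 172 at an unadjusted p under 0.05. The direction of the named genes' log2 fold changes differed from that reported in 38 of 1853 alternative values with all libraries and in 31 of 1693 without the high-Cr2 libraries, and the cause was not tested. With all libraries these were, under limma voom, Slc7a10 -0.15, Lpl -0.19, Retn -0.26, Cd163 -0.42, Bmp3 -0.37, Abhd5 -0.053 and Zbtb16 -0.16. With quality weights they were Ccng1 0.056, Socs3 -0.0092, Adgre1 0.10, Cxcl13 -1.20 and Pecam1 -0.0053. With the replicate block they were Perp -1.62, Cd163 -0.57, Krt5 -0.81, Krt14 -0.83, Bmp3 -0.053, Prlr -0.060 and Zbtb16 -0.035. Leaving out 1 library at a time gave ranges across 0 for Abhd5 (-0.033 to 0.39), Adgre1 (-0.27 to 0.069), Bmp3 (-0.16 to 0.55), Ccng1 (-0.25 to 0.054), Cd163 (-0.21 to 0.47), Cdkn1a (-0.079 to 0.55), Cxcl13 (-1.29 to 3.16), Lep (-0.995 to 0.10), Lpl (-0.043 to 0.51), Myh4 (-13.20 to 2.15), Perp (-1.88 to 3.52), Retn (-0.11 to 0.41) and Zbtb16 (-0.064 to 0.48). Without the high-Cr2 libraries the direction differed for Mdm2 with total counts (-0.011), for Lep with limma voom (-0.038), and with quality weights for Lep (-0.23), Perp (-0.22), Socs3 (-0.078), Tgfb1 (-0.0069) and Pecam1 (-0.035). With the replicate block it differed for Adipoq (0.058), Pparg (0.0031), Phlda3 (0.080), Perp (-1.26), Adgre1 (-0.21), Cd163 (-0.068) and Krt5 (-0.42). The ranges on leaving out 1 library crossed 0 for Adgre1 (-0.064 to 0.21), Adipoq (-0.24 to 0.060), Ccng1 (-0.033 to 0.18), Col1a1 (-0.48 to 0.067), Lep (-0.47 to 0.43), Mdm2 (-0.034 to 0.071), Myh4 (-14.67 to 2.38), Pecam1 (-0.046 to 0.23), Perp (-1.65 to 3.95), Pparg (-0.14 to 0.0058), Socs3 (-0.025 to 0.23) and Tgfb1 (-0.12 to 0.28). En1, Shox2, Mapt, Calr, Pdia3, Hspa5 and Hsp90aa1 kept a negative value under every alternative in both sets, and so did others such as Dkk2, Pon1 and Ldlrad4. In the genes named first every FLASH library lay below every sham library. Leaving out 1 library could therefore turn their sign only through a change in scaling, and the kept sign is no further support. List medians moved by more than 1 SD between libraries in 24 of 900 values with all libraries and in 37 of 810 without the high-Cr2 libraries.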
